A study of Mus musculus with 12 samples.

Results

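The Wnt pathway genes described here are Wnt4, Wnt5a, Lrp5, Lrp6, Sfrp1, Znrf3, Rnf43, Ctnnb1, Axin2 and Lef1, 10 of the 26264 genes in the count tables, taken by symbol and read in glomerulus-enriched RNA of mice with adriamycin (ADR) injury. They were measured in male mice, 8 weeks old, of 2 related substrains, BALB/cAjcl, called Ajcl below, and BALB/cByJcl, called ByJcl. Each substrain had 3 libraries from untreated baseline mice and 3 from mice killed on Day 5 that had received ADR (doxorubicin) intravenously once at 10 mg/kg, which makes 12 libraries in 4 groups, all labelled as batch 1. No genotype other than the substrain, and no transgene, was named in the labels. Day 5 mice were compared with untreated mice, and no saline-injected mice were analysed here. Glomeruli were captured with magnetic beads perfused into the glomerular capillaries, so each library mixes podocytes with endothelial, mesangial and carried-over tubular RNA.

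In canonical Wnt signalling, a secreted Wnt ligand binds a Frizzled receptor and the co-receptor LRP5 or LRP6, the complex that degrades β-catenin is held back, and β-catenin enters the nucleus to act with TCF and LEF factors. ZNRF3 and RNF43 remove Frizzled receptors from the cell surface, and Axin2, Znrf3, Rnf43 and Lef1 are themselves known targets of the pathway. In podocytes, activation of β-catenin signalling is known from experimental glomerular injury, including that caused by ADR.

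Depth was similar across libraries, with 42198416 to 54687045 counts per library. The 10 podocyte markers examined, among them Nphs1 and Wt1, summed to 15927 to 22804 CPM (counts scaled to library size) in baseline libraries and 10069 to 17069 CPM on Day 5, and none was at 0. Podocyte RNA was thus present in every library, beside tubular RNA in amounts that differed between them. Replicate 1 of Ajcl on Day 5 had the highest sum of loop, distal and collecting duct markers, 2003 CPM against 96.9 to 1657 CPM in the other libraries. It was not the extreme library for proximal tubule or podocyte markers, as its proximal tubule sum of 2704 CPM was below the 2820 CPM of Ajcl baseline replicate 3, and its podocyte sum of 11629 CPM was above those of 2 ByJcl Day 5 libraries, 10069 and 10441 CPM. The study set that library aside for low glomerular purity, because its ratio of podocyte to tubular markers was the lowest of all samples. Single marker sums do not show that ratio. The tests below therefore used 11 libraries, and results of the 10 members that rest on this choice are also given with all 12. For the wider pathway list this was done only in part. Nothing in the labels says that libraries of a group came from separate mice, so p-values measure the spread between these libraries.

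After ADR, 3 of the 10 genes fell in ByJcl at an adjusted p below 0.05 and none rose. These were Znrf3, Lrp6 and Lef1, at 0.635, 0.663 and 0.514 of their baseline level. In the same comparison 10.6% of the 17002 genes tested changed, 4.83% lower and 5.75% higher. No member passed in Ajcl, where 0.312% of all genes did. At an unadjusted p below 0.05 there were 2 members in Ajcl, Lrp5 and Lef1, where 9.8% of all genes were. Averaged over both substrains, Lef1 alone passed, where 10.4% of all genes did, 4.15% lower and 6.29% higher. The median log2 fold change of the 10 members was -0.45 in ByJcl, against 0.01 over all genes tested, and -0.17 in Ajcl, against -0.01. In bulk RNA, fewer cells of a type and less RNA per cell cannot be told apart. Of the 10 podocyte markers, 9 fell and 1 rose in ByJcl after ADR, with a median log2 fold change of -1.2, and 2 of 6 glomerular endothelial markers fell, with a median of -0.43. The part of either cell type in the changes of the Wnt genes was not tested.

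With all 12 libraries, no member passed in ByJcl by edgeR, where 7.21% of all genes did, and the adjusted p was 0.131 for Znrf3, 0.131 for Lrp6 and 0.0527 for Lef1. DESeq2 on all 12 still called Lef1 there (-0.94 ± 0.28, SE, adjusted p = 0.00925), and no other member, beside 12.0% of all genes. By edgeR the ByJcl values themselves hardly moved, at log2 fold changes of -0.64, -0.58 and -0.95. By the same fit 0.325% of all genes passed in Ajcl, none of them a member, and 9.63% averaged over the substrains, with Lef1 again among them (adjusted p = 0.0108). With DESeq2 on 11 libraries, Znrf3, Lrp6 and Lef1 passed in ByJcl beside 15.8% of all genes. DESeq2 called 1.77% of genes in Ajcl, none of them a member, and averaged over the substrains it called 14.6%, among them Lef1, Lrp6 and, in the other direction, Lrp5.

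**Figure D1:**
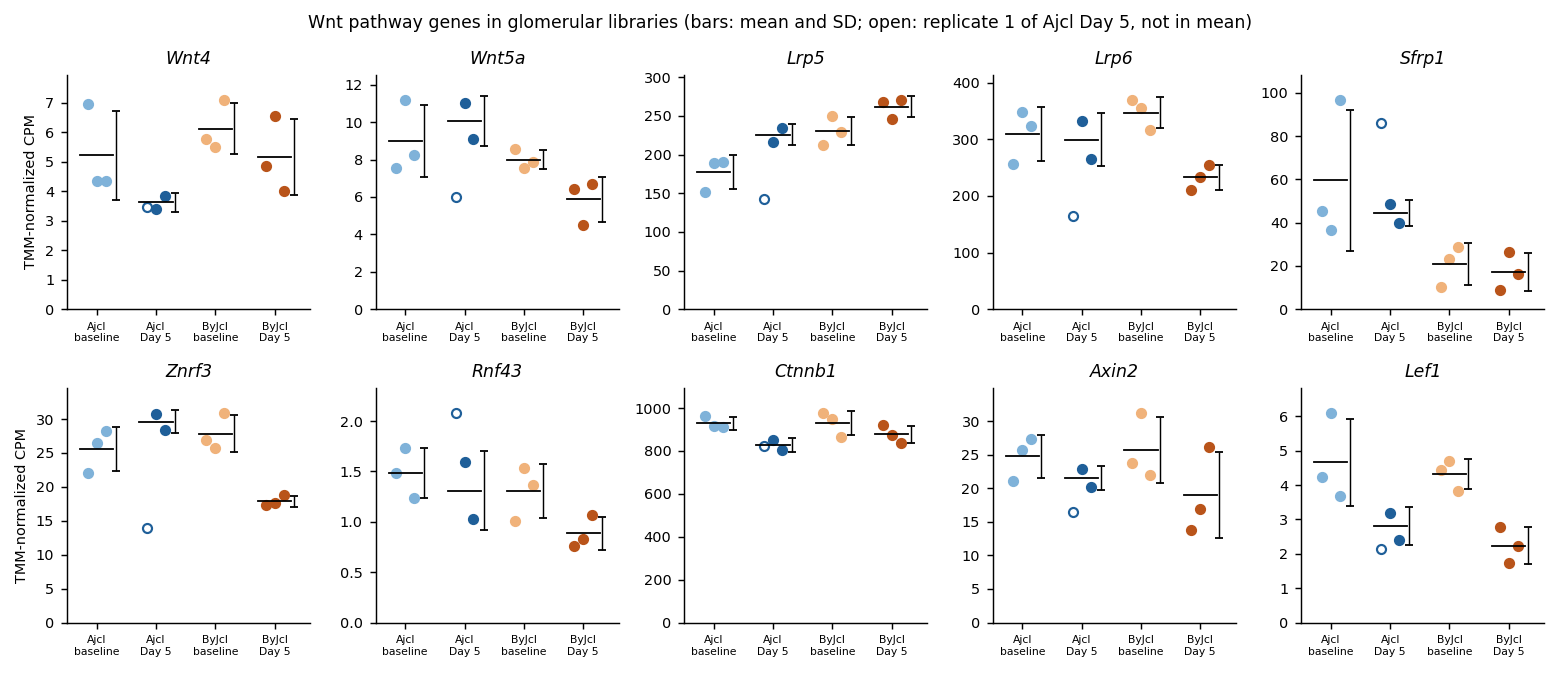
Each panel plots 1 gene in all 12 libraries as CPM scaled by trimmed mean of M-values (TMM), on a linear axis from 0, with the mean (line) and SD (bar) of each group. The open point is Ajcl Day 5 replicate 1, which is not in its group's mean. Lef1 is lower in each Day 5 library than in each baseline library, and Znrf3 lies between 17.3 and 18.8 CPM in the 3 ByJcl Day 5 libraries against 25.8 to 30.9 CPM at ByJcl baseline.

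The 10 genes spanned a wide range of levels. Per kilobase of exon, the mean over the 12 libraries was 109 CPM for Ctnnb1, 22.1 for Lrp5, 18.5 for Lrp6, 8.08 for Sfrp1, 3.21 for Axin2, 2.98 for Znrf3, 0.993 for Wnt4, 0.982 for Wnt5a, 0.370 for Lef1 and 0.199 for Rnf43. Some neighbours in this order were not separated. Wnt4 exceeded Wnt5a in 6 of 12 libraries, Lrp5 exceeded Lrp6 in 8, and Axin2 exceeded Znrf3 in 8. Ctnnb1 exceeded Lrp5, Znrf3 exceeded Wnt4 and Wnt5a exceeded Lef1 in 12 of 12. Counts of the rarest member, Rnf43, ran from 34 to 97 per library, and those of Lef1 from 75 to 289, so the values of both carry more counting error than those of Ctnnb1, with at least 38028.

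Wnt4 (ENSMUSG00000036856.6, GRCm39 chr4:137004373-137027037, plus strand) encodes a ligand needed for nephron formation. It stood at 6.96, 4.34 and 4.34 CPM at Ajcl baseline and at 3.45, 3.4 and 3.84 CPM on Day 5. In ByJcl it stood at 5.77, 5.49 and 7.10 CPM at baseline and at 4.86, 6.55 and 4.02 CPM on Day 5. All Ajcl Day 5 libraries were below all Ajcl baseline libraries, while the ByJcl groups overlapped. Neither difference passed, with log2 fold changes of -0.51 ± 0.28 (SE, adjusted p = 0.618) in Ajcl and -0.27 ± 0.25 (adjusted p = 0.538) in ByJcl.

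Wnt5a (ENSMUSG00000021994.17, GRCm39 chr14:28226495-28249405, plus strand) encodes a ligand mostly associated with signalling that does not pass through β-catenin. Its levels were 7.56, 11.2 and 8.25 CPM at Ajcl baseline and 6.00, 11 and 9.12 CPM on Ajcl Day 5. They were 8.56, 7.55 and 7.89 CPM at ByJcl baseline and 6.45, 4.48 and 6.67 CPM on ByJcl Day 5. The ByJcl groups did not overlap, and the Ajcl groups did. In ByJcl the log2 fold change was -0.46 ± 0.21 (SE, adjusted p = 0.183), and in Ajcl it was 0.16 ± 0.23 (adjusted p = 0.882), the latter turning to -0.05 with replicate 1 included.

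Lrp6 (ENSMUSG00000030201.17, GRCm39 chr6:134423439-134544212, minus strand) encodes a co-receptor for Wnt ligands. In ByJcl it fell from 370, 355 and 317 CPM at baseline to 210, 233 and 255 CPM on Day 5. In Ajcl it stood at 257, 349 and 324 CPM at baseline and at 164, 332 and 266 CPM on Day 5. The ByJcl groups were apart, and the Ajcl groups overlapped, with the lowest level of all 12 libraries in replicate 1 of Ajcl Day 5. The log2 fold change was -0.59 ± 0.14 (SE, adjusted p = 0.0239) in ByJcl and -0.04 ± 0.16 (adjusted p = 0.957) in Ajcl, where it was -0.29 ± 0.21 (adjusted p = 0.814) with all 12 libraries. The ByJcl call was lost when 1 of 4 ByJcl libraries was left out, with an adjusted p of 0.0812 without baseline replicate 1, 0.078 without baseline replicate 2, 0.0681 without Day 5 replicate 1 and 0.0836 without Day 5 replicate 2. The average over the substrains, -0.32 ± 0.11 (adjusted p = 0.0839), passed without Ajcl baseline replicate 1 (-0.38, adjusted p = 0.0337).

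Lrp5 (ENSMUSG00000024913.18, GRCm39 chr19:3634821-3736643, minus strand), which encodes the paralogous co-receptor, did not follow Lrp6. It stood at 152, 189 and 191 CPM at Ajcl baseline and at 143, 216 and 235 CPM on Ajcl Day 5. In ByJcl it stood at 213, 250 and 229 CPM at baseline and at 268, 246 and 271 CPM on Day 5. Leaving aside replicate 1, the lowest library of all, the Day 5 libraries of Ajcl exceeded its baseline libraries, and the ByJcl groups overlapped. Log2 fold changes were 0.36 ± 0.12 (SE, adjusted p = 0.33) in Ajcl and 0.17 ± 0.11 (adjusted p = 0.376) in ByJcl, and the Ajcl value was 0.16 ± 0.17 (adjusted p = 0.879) with all 12 libraries. Averaged over the substrains it was 0.26 ± 0.08, with an adjusted p of 0.0713 by edgeR and 0.0312 by DESeq2, and 0.44 by edgeR with all 12 libraries.

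The ratio of Lrp6 to Lrp5, each per kilobase of exon, is taken within a library and does not depend on its depth or scaling. It was 1.08, 1.18 and 1.08 at Ajcl baseline and 0.734, 0.981 and 0.721 on Ajcl Day 5. In ByJcl it was 1.11, 0.904 and 0.881 at baseline and 0.499, 0.603 and 0.599 on Day 5. In both substrains every Day 5 library was below every baseline library, replicate 1 of Ajcl Day 5 included. This ratio was chosen after the values were seen, so it is given without a test.

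Sfrp1 (ENSMUSG00000031548.9, GRCm39 chr8:23901263-23939648, plus strand) encodes a secreted protein that binds Wnt ligands. It was the most variable member, with an 11-fold range between its lowest and highest library. Levels were 45.3, 36.7 and 96.9 CPM at Ajcl baseline and 86.2, 48.8 and 40.1 CPM on Ajcl Day 5, and ByJcl libraries held 10.1, 23.4 and 29.0 CPM at baseline and 8.80, 26.4 and 16.3 CPM on Day 5. Every Ajcl library exceeded every ByJcl library, and baseline and Day 5 overlapped in both substrains. After ADR the log2 fold change was -0.40 ± 0.52 (SE, adjusted p = 0.868) in Ajcl and -0.29 ± 0.46 (adjusted p = 0.74) in ByJcl, with the sign turning as single libraries were left out: 0.12 in Ajcl without baseline replicate 3, and 0.03 in ByJcl without either baseline replicate 3 or Day 5 replicate 1. With all 12 libraries the Ajcl value was -0.03 ± 0.49 (adjusted p = 0.992).

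Znrf3 (ENSMUSG00000041961.16, GRCm39 chr11:5226324-5394939, minus strand) encodes a transmembrane ubiquitin ligase that clears Frizzled receptors. It fell in ByJcl from 26.9, 25.8 and 30.9 CPM at baseline to 17.3, 17.6 and 18.8 CPM on Day 5. In Ajcl it stood at 22.0, 26.4 and 28.3 CPM at baseline and at 13.9, 30.8 and 28.4 CPM on Day 5. The ByJcl groups were well apart. In Ajcl, replicate 1 was the lowest of all 12 libraries while the other two Day 5 libraries exceeded every Ajcl baseline library. The log2 fold change was -0.65 ± 0.12 (SE, adjusted p = 0.00785) in ByJcl and 0.22 ± 0.13 (adjusted p = 0.659) in Ajcl. The ByJcl call held in each of 11 fits that left out 1 further library, with an adjusted p of 0.00717 to 0.0357. The Ajcl value turned to -0.07 when replicate 1 was included.

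Rnf43 (ENSMUSG00000034177.17, GRCm39 chr11:87553548-87626377, plus strand) encodes the related ubiquitin ligase. It stood at 1.48, 1.73 and 1.24 CPM at Ajcl baseline and at 2.08, 1.59 and 1.03 CPM on Ajcl Day 5. ByJcl libraries held 1.01, 1.53 and 1.37 CPM at baseline and 0.761, 0.827 and 1.07 CPM on Day 5. All groups of the same substrain overlapped. Log2 fold changes were -0.57 ± 0.31 (SE, adjusted p = 0.268) in ByJcl and -0.18 ± 0.34 (adjusted p = 0.914) in Ajcl, the latter turning to 0.08 with replicate 1 included and also, in the 11-library fit, without Day 5 replicate 3, when that group is 1 library.

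Ctnnb1 (ENSMUSG00000006932.19, GRCm39 chr9:120757422-120789579, plus strand) encodes β-catenin, which acts both in the pathway and at cell junctions. It was the steadiest member, with a 1.21-fold range over all libraries. Ajcl libraries held 964, 915 and 910 CPM at baseline and 822, 850 and 806 CPM on Day 5, and ByJcl libraries held 977, 949 and 866 CPM at baseline and 920, 874 and 839 CPM on Day 5. The Ajcl groups did not overlap, although the log2 fold change was only -0.16 ± 0.11 (SE, adjusted p = 0.731), and it was -0.10 ± 0.10 (adjusted p = 0.569) in ByJcl. Transcript level says nothing of the stability of the protein, through which the pathway acts.

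Axin2 (ENSMUSG00000000142.17, GRCm39 chr11:108811169-108841609, plus strand) encodes a scaffold of the destruction complex and is widely read as a target of β-catenin. It stood at 21.1, 25.7 and 27.4 CPM at Ajcl baseline and at 16.5, 22.8 and 20.2 CPM on Ajcl Day 5. In ByJcl it stood at 23.7, 31.2 and 22.0 CPM at baseline and at 13.8, 16.9 and 26.1 CPM on Day 5. Both pairs of groups overlapped, in ByJcl through Day 5 replicate 3 alone. Neither value passed, with log2 fold changes of -0.45 ± 0.22 (SE, adjusted p = 0.23) in ByJcl and -0.19 ± 0.25 (adjusted p = 0.872) in Ajcl. Without ByJcl Day 5 replicate 3, the ByJcl value was -0.74 and passed (adjusted p = 0.0377), and the average over the substrains was -0.47 (adjusted p = 0.0499).

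Lef1 (ENSMUSG00000027985.16, GRCm39 chr3:130903919-131018005, plus strand) encodes a DNA-binding partner of β-catenin. Its levels were 4.23, 6.10 and 3.68 CPM at Ajcl baseline and 2.14, 3.20 and 2.41 CPM on Ajcl Day 5. They were 4.43, 4.70 and 3.83 CPM at ByJcl baseline and 2.78, 1.72 and 2.22 CPM on ByJcl Day 5. All 6 Day 5 libraries were below all 6 baseline libraries. The log2 fold change was -0.96 ± 0.26 (SE, adjusted p = 0.0399) in ByJcl, -0.73 ± 0.29 (adjusted p = 0.432) in Ajcl and -0.84 ± 0.20 (adjusted p = 0.0209) averaged over the substrains. The ByJcl call was lost without ByJcl baseline replicate 1 (adjusted p = 0.0986), 2 (0.125) or 3 (0.0678), and without ByJcl Day 5 replicate 2 (0.147) or 3 (0.0821). The averaged call was lost without ByJcl baseline replicate 2 (adjusted p = 0.0516). It was also missed without Ajcl Day 5 replicate 3 (adjusted p = 0.132), a fit that leaves 1 Ajcl Day 5 library, assumed to vary like the other groups, and so says little of its stability.

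Lef1, as a member that both binds such motifs and is known as a target, was examined for TCF/LEF motifs in the 250 bases upstream of annotated starts. RefSeq windows (GRCm38.p6) were matched for 5 of the 10 members, namely Lef1, Ctnnb1, Rnf43, Wnt4 and Axin2, with 10 windows in all. Wnt5a, Lrp5, Lrp6, Sfrp1 and Znrf3 were not matched. The motifs searched were CTTTGA and CTTTGT on both strands. Only 1 of the 10 windows held a match, that of the most downstream of 4 Lef1 starts (chr3:131156044-131156293, plus strand), with 3 matches beginning 180, 146 and 120 bases before the start. It is shown beside the window of Axin2 (chr11:108920099-108920348, plus strand), which held none. Capitals mark the motif as read on the strand shown.
Lef1: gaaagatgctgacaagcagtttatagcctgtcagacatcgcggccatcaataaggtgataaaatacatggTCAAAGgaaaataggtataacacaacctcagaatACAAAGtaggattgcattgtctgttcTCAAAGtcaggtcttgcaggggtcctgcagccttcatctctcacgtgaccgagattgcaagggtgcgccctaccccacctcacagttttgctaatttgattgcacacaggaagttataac
Axin2: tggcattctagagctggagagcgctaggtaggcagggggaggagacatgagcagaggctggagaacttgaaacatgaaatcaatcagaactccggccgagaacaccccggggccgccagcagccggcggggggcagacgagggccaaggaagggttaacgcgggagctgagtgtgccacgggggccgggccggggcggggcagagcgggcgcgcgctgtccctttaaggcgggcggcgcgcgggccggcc

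Of all 32851 such windows, 27.6% held at least 1 match and 0.776% held 3 or more. G and C made up 44.8% of the bases of the Lef1 window with the matches and 69.2% of those of the Axin2 window. A match describes the letters of the window and is not evidence of binding, and counts summed over the gene do not tell which Lef1 start was used.

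**Figure D2:**
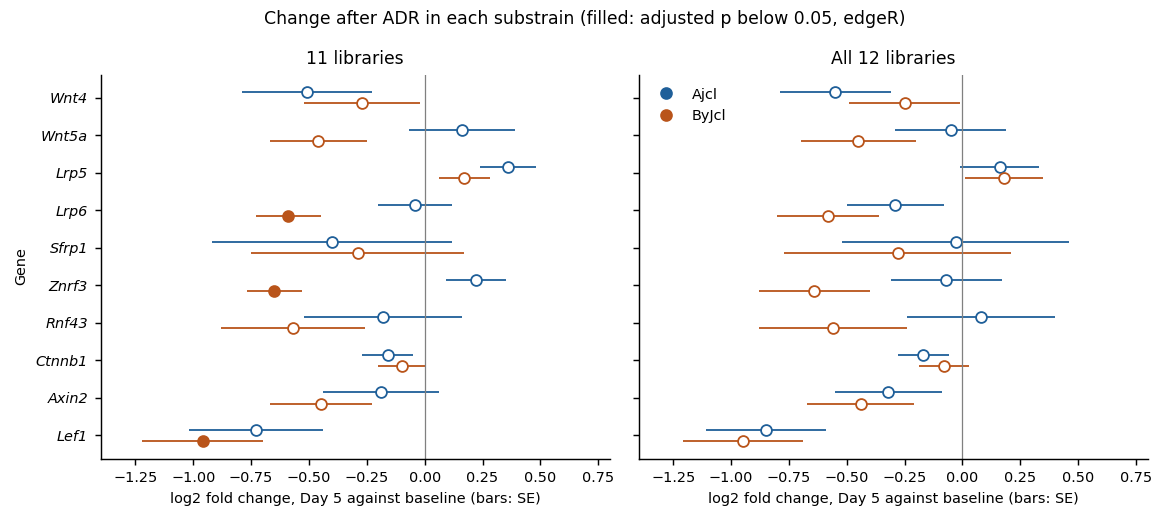
Log2 fold change from baseline to Day 5 for each gene in each substrain, with bars of 1 SE, from 11 libraries (left) and all 12 (right), with filled points at an adjusted p below 0.05 by edgeR. In ByJcl, 9 of 10 values lie below 0 in both panels, and Znrf3, Lrp6 and Lef1 are filled on the left only.

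Groups of 3 that did not overlap gave a second view that uses all 12 libraries and no model. After ADR, 3 members in Ajcl were apart, all lower (Wnt4, Ctnnb1 and Lef1), where 13.4% of all genes tested were apart. In ByJcl 4 members were apart, all lower (Wnt5a, Lrp6, Znrf3 and Lef1), where 33.1% of all genes were apart. Lef1 was in both sets. The share of members in ByJcl was thus close to that of all genes.

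Next, the substrains were compared at each time point, which asks whether members differed before injury. At baseline no member passed, where 0.159% of all genes did, and DESeq2 called no member either, at 0.594% of genes. At an unadjusted p below 0.05 there were 2 by each tool, Lrp5 and Sfrp1, where 8.34% of all genes were by edgeR and 9.48% by DESeq2. Both were apart between the substrains at baseline, where 14.3% of all genes were. The log2 difference, ByJcl minus Ajcl, was 0.41 ± 0.11 (SE, adjusted p = 0.473) for Lrp5 and -1.48 ± 0.47 (adjusted p = 0.534) for Sfrp1. The median log2 difference of the 10 members was 0.05, against 0.01 over all genes.

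On Day 5, no member passed between the substrains by edgeR, where 0.165% of all genes did, and 4 had an unadjusted p below 0.05, where 14.0% of all genes had. Znrf3 was nearest to the threshold, with a log2 difference, ByJcl minus Ajcl, of -0.72 ± 0.13 (SE, adjusted p = 0.0716). The others were Wnt5a at -0.77 ± 0.23 (adjusted p = 0.195), Sfrp1 at -1.37 ± 0.51 (adjusted p = 0.281) and Lrp6 at -0.36 ± 0.16 (adjusted p = 0.34). By DESeq2, which called 3.15% of genes, Znrf3 (adjusted p = 0.000674) and Wnt5a (adjusted p = 0.0465) passed. With replicate 1 of Ajcl included, the edgeR difference of Znrf3 shrank to -0.45 ± 0.24 (adjusted p = 0.343), that of Wnt5a to -0.57 ± 0.25 (adjusted p = 0.249) and that of Lrp6 to -0.13 ± 0.21 (adjusted p = 0.801), and the groups overlapped for all 3. That of Sfrp1 grew to -1.77 ± 0.51 (adjusted p = 0.123). Both DESeq2 calls were lost with that library included, at an adjusted p of 0.33 for Znrf3 and 0.185 for Wnt5a, while Sfrp1 passed by DESeq2 (adjusted p = 0.0102), beside 5.48% of all genes. Over all 12 libraries, Wnt4 and Lrp5 were apart and higher in ByJcl and Sfrp1 was apart and lower, where 19.3% of all genes were apart.

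The difference between the substrains in their response to ADR was tested by the interaction term. By edgeR no gene passed (0.0% of 17002), and 2 members had an unadjusted p below 0.05, namely Znrf3 and Lrp6, where 8.02% of all genes had. The log2 fold change in ByJcl minus that in Ajcl was -0.88 ± 0.18 (SE, adjusted p = 0.62) for Znrf3 and -0.55 ± 0.21 (adjusted p = 0.62) for Lrp6. DESeq2 called 0.129% of genes, Znrf3 among them (log2 difference -0.86 ± 0.21, adjusted p = 0.0295). With all 12 libraries the Znrf3 interaction was -0.57 ± 0.33 by edgeR and -0.58 ± 0.36 by DESeq2, with an adjusted p of 1.0 by each, and the Lrp6 interaction was -0.29 ± 0.30 by edgeR and -0.30 ± 0.33 by DESeq2. The call of a differing response of Znrf3 therefore rested on DESeq2 and on setting aside replicate 1. Lef1 had an interaction of -0.23 ± 0.39 (adjusted p = 0.899), with an SE larger than the value itself.

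**Figure D3:**
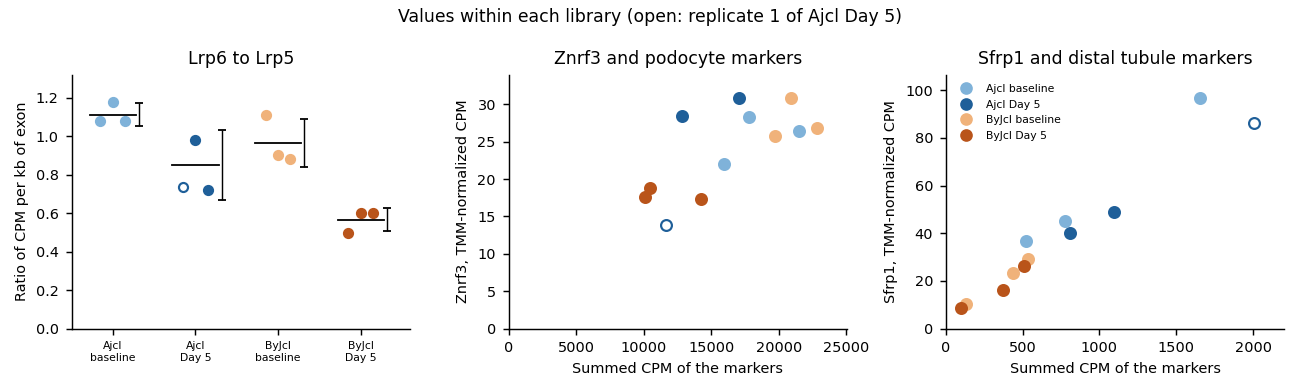
Left, the ratio of Lrp6 to Lrp5 (both CPM per kilobase of exon) in each library, with group means and SD. Middle and right, Znrf3 against the summed CPM of 10 podocyte markers and Sfrp1 against that of 6 loop, distal and collecting duct markers, with 1 point per library, all axes linear from 0, and the open point for Ajcl Day 5 replicate 1. Sfrp1 lies along a rising line with the tubular sum, and the 4 libraries lowest in Znrf3 have podocyte sums of 10069 to 14212 CPM, a range that also holds Ajcl Day 5 replicate 3, with 28.4 CPM of Znrf3.

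Marker sums moved with several of these results. Podocyte markers summed to 19762 to 22804 CPM at ByJcl baseline and to 10069 to 14212 CPM on ByJcl Day 5, and to 15927 to 21500 and 11629 to 17069 CPM in Ajcl. Per 1000 CPM of podocyte markers, Znrf3 was 1.18 to 1.48 CPM at ByJcl baseline and 1.22 to 1.80 CPM on ByJcl Day 5, so that the 2 groups overlapped. In Ajcl it was 1.23 to 1.59 CPM at baseline and 1.2, 1.81 and 2.21 CPM on Day 5. Lrp6 was 15.1 to 18.0 CPM at ByJcl baseline and 14.7 to 24.4 CPM on Day 5 by the same measure, and 16.2 to 18.2 CPM and then 14.1, 19.5 and 20.7 CPM in Ajcl. In each substrain the overlap of both genes rested on Day 5 replicate 1, and the other two Day 5 libraries lay above every baseline library. Lef1 was 0.183 to 0.238 and 0.171 to 0.213 CPM in ByJcl, overlapping, and 0.206 to 0.283 and 0.184 to 0.188 CPM in Ajcl, where all Day 5 libraries stayed lower. These ratios were chosen after the values were seen and were not tested.

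Sfrp1 moved with markers of the distal nephron. Loop, distal and collecting duct markers summed to 522 to 1657 CPM at Ajcl baseline and 811 to 2003 CPM on Ajcl Day 5, against 135 to 534 and 96.9 to 509 CPM in ByJcl. Per 1000 CPM of these markers, Sfrp1 was 58.3 to 70.2 CPM at Ajcl baseline, 43.0 to 49.5 CPM on Ajcl Day 5, 53.7 to 74.6 CPM at ByJcl baseline and 43.7 to 90.7 CPM on ByJcl Day 5. The substrains, which were apart in Sfrp1 itself, overlapped in this ratio at both time points. Within Ajcl every Day 5 library was below every baseline library in this ratio, and within ByJcl the time points overlapped. This ratio too was chosen after the values were seen, and the part of tubular RNA in the Sfrp1 difference was not tested. The genes most like Sfrp1 over the 12 libraries, by Pearson's r of log2(CPM + 1), were Kcnj1 (0.98), which encodes a potassium channel of the loop and collecting duct, and Ppp1r1a (0.97).

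For the other members the 2 most similar genes by the same measure over 12 libraries had r of 0.87 to 0.98. These were Phf8 and Ddx17 for Lrp6 (both 0.98), Chrna7 and Nlrc3 for Lef1 (both 0.97), Nrp2 and Mprip for Lrp5 (0.96 and 0.95), Tmem79 and Olfml2a for Znrf3 (0.95 and 0.94), and Dnajc3 and Smad9 for Axin2 (both 0.93). Wnt5a was most like Ccdc77 and Gm10336 (0.95 and 0.94), Ctnnb1 most like Msl1 and Zfp873 (0.91 and 0.90), Rnf43 most like 4833418N02Rik and Hoxb4 (both 0.90), and Wnt4 most like Otulinl and Tespa1 (0.90 and 0.87). The libraries share groups and composition, and these are the highest correlations among all genes tested, so they serve as a description only.

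The remainder of the pathway was read through a list of 97 other genes in 9 roles, of which 89 were tested. Wnt1, Wnt3, Wnt7a, Wnt8a, Rspo2, Rspo4 and Dkk4 had at most 18 counts in any library and Mmp7 had none, and these 8 were not tested. In ByJcl after ADR 17 of the 89 passed, 4 higher and 13 lower, with a median log2 fold change of -0.17, where 10.6% of all genes passed, 5.75% higher and 4.83% lower. With all 12 libraries 12 of 88 passed there by edgeR, 4 higher and 8 lower, where 7.21% of all genes did. In Ajcl none passed by edgeR, where 15 had an unadjusted p below 0.05, against 9.8% of all genes, and DESeq2 called 1, Apcdd1, against 1.77% of all genes. Averaged over the substrains 19 passed, 7 higher and 12 lower, where 10.4% of all genes did, 6.29% higher and 4.15% lower. None passed between the substrains at baseline, on Day 5 or in the interaction by edgeR, where 9, 17 and 10 had an unadjusted p below 0.05, against 8.34%, 14.0% and 8.02% of all genes. DESeq2 called 2, 3 and 0, against 0.594%, 3.15% and 0.129% of all genes. The count in ByJcl moved as single libraries were left out, at 9 without baseline replicate 1, 6 without baseline replicate 2, 11 without baseline replicate 3, 6 without Day 5 replicate 2 and 11 without Day 5 replicate 3. The share of all genes called fell in these 5 fits too, to 4.97%, 4.32%, 6.29%, 4.05% and 9.54%. The count averaged over the substrains was 11 without Ajcl baseline replicate 2, and it was 12, 9 and 11 without ByJcl baseline replicate 1, baseline replicate 2 and Day 5 replicate 2. The share of all genes called in these 4 fits was 7.69%, 7.31%, 7.17% and 6.79%. Without Ajcl Day 5 replicate 3 the averaged count was 4, beside 3.0% of all genes, but that fit holds 1 Ajcl Day 5 library and takes its spread from the other groups.

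The counts by role below are few genes each and stand beside the 4.83% of all genes that were called lower and the 5.75% called higher in ByJcl, so they describe which genes passed and are not results about a role. Of the 17 calls in ByJcl, 4 held in all 11 fits that left out 1 library, those of Myc, Wif1, Fzd2 and Vangl2, and 13 were lost in at least 1.

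Among secreted and surface antagonists, 2 of 12 tested genes fell in ByJcl, Wif1 and Dkk3, and none rose. The call of Dkk3 (-0.70 ± 0.15, SE, adjusted p = 0.016) was lost without ByJcl baseline replicate 1 (adjusted p = 0.0629). Wif1, a secreted protein that binds Wnt ligands, was at 143, 99.1 and 109 CPM at ByJcl baseline and at 25.4, 16.4 and 19.9 CPM on ByJcl Day 5. In Ajcl it was at 98.2, 112 and 62.4 CPM and then at 45.3, 67.3 and 29.3 CPM, so that the Ajcl groups overlapped and the ByJcl groups were far apart. The log2 fold change was -2.52 ± 0.32 (SE, adjusted p = 0.00171) in ByJcl and -0.91 ± 0.35 (adjusted p = 0.389) in Ajcl, with an interaction of -1.61 ± 0.45 (adjusted p = 0.62, and 0.103 by DESeq2). Between the substrains on Day 5, where the groups were apart, the log2 difference, ByJcl minus Ajcl, was -1.23 ± 0.34 (adjusted p = 0.167) by edgeR and -1.22 ± 0.33 (adjusted p = 0.0129) by DESeq2, and with all 12 libraries the adjusted p was 0.0923 and 0.00655. The most abundant antagonists per kilobase were Sfrp2, at a mean of 218 CPM, and Dkk2, at 89.3 CPM, and neither passed in any of the 6 comparisons.

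Among Frizzled and other Wnt receptors, 4 of 14 fell in ByJcl, namely Fzd2, Fzd3, Fzd7 and Ryk, and none rose. Leaving out 1 library ended the call of Fzd7 in 2 of 11 fits (without ByJcl baseline replicate 1 or Day 5 replicate 2), that of Ryk in 5 (any single ByJcl library other than baseline replicate 3) and that of Fzd3 in 7 (any single ByJcl library or Ajcl baseline replicate 3), with an adjusted p of up to 0.0641, 0.109 and 0.132. Fzd2, the Frizzled with the highest level per kilobase, was at 154, 133 and 163 CPM at ByJcl baseline and at 68.5, 51.2 and 64.4 CPM on Day 5. Its Ajcl libraries held 129, 142 and 104 CPM and then 84.7, 114 and 70.0 CPM, which overlapped. In ByJcl it changed by -1.30 ± 0.19 (log2, SE, adjusted p = 0.00307), and the Ajcl value was -0.43 ± 0.21 (adjusted p = 0.552). Fzd5 passed only in the average over the substrains (0.53 ± 0.14, adjusted p = 0.0314), a call lost in 6 of 11 fits that left out 1 library (Ajcl baseline replicate 1 or 3, Ajcl Day 5 replicate 3, which leaves 1 library in its group, ByJcl baseline replicate 2 or 3, or ByJcl Day 5 replicate 2), with an adjusted p of up to 0.18, and also with all 12 libraries (0.41 ± 0.17, adjusted p = 0.156 by edgeR and 0.111 by DESeq2). R-spondins and their receptors, which act against ZNRF3 and RNF43, had 5 of 7 genes tested and none passed.

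Wnt ligands other than the members had 13 of 17 genes tested, and 2 rose in ByJcl, Wnt9a and Wnt2, while none fell. Wnt9a was at 2.75, 2.56 and 3.42 CPM at ByJcl baseline and at 5.55, 8.82 and 6.26 CPM on Day 5, with no overlap. It rose by 1.22 ± 0.24 (log2, SE, adjusted p = 0.0107), a call lost without ByJcl baseline replicate 2 (adjusted p = 0.0527). In Ajcl it was at 2.5, 2.45 and 3.46 CPM and then at 3.77, 4.37 and 5.72 CPM, also with no overlap. The Ajcl value was 0.87 ± 0.26 (adjusted p = 0.275), and the average over the substrains was 1.05 ± 0.18 (adjusted p = 0.00491). Wnt2 had 4 to 12 counts per library at ByJcl baseline and 28 to 39 on Day 5. The call of its rise of 2.17 ± 0.53 (adjusted p = 0.0265) was lost in 4 of 11 fits that left out 1 library. Those were the fits without ByJcl baseline replicate 2 or 3 or Day 5 replicate 2 or 3, with an adjusted p of up to 0.0966. In Ajcl it had 12, 18 and 26 counts at baseline and 44, 18 and 44 on Day 5, with overlap. At baseline the substrains were apart in Wnt2, with a log2 difference, ByJcl minus Ajcl, of -1.27 ± 0.53 (adjusted p = 0.583). Wls, which carries Wnt ligands to the cell surface, rose in ByJcl by 0.45 ± 0.11 (adjusted p = 0.0305), a call lost in 4 of 11 fits, those without ByJcl baseline replicate 2 or 3 or Day 5 replicate 1 or 2, with an adjusted p of up to 0.123. In Ajcl it was at 353, 360 and 308 CPM at baseline and at 413, 364 and 415 CPM on Day 5, with no overlap. The Ajcl value was 0.21 ± 0.13 (adjusted p = 0.676). Averaged over the substrains Wls rose by 0.33 ± 0.09 (adjusted p = 0.0332), a call also lost in some fits that left out 1 library.

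Of 8 planar polarity genes, which serve signalling that bypasses β-catenin, 3 fell in ByJcl, Vangl2, Celsr2 and Prickle1. The calls of Celsr2 and Prickle1 were each lost in 4 of 11 fits, without ByJcl baseline replicate 1 or 2 or Day 5 replicate 2, and also without Day 5 replicate 3 for Celsr2 (adjusted p of up to 0.0862) and Day 5 replicate 1 for Prickle1 (up to 0.0861). Vangl2 was at 63.6, 71.0 and 49.1 CPM at ByJcl baseline and at 31.0, 14.2 and 31.1 CPM on Day 5, a log2 fold change of -1.28 ± 0.25 (SE, adjusted p = 0.0099). Its Ajcl libraries held 60.7, 62.0 and 66.7 CPM and then 32.6, 41.4 and 39.4 CPM. The groups were apart in both substrains, although the Ajcl value of -0.63 ± 0.28 did not pass (adjusted p = 0.489). Of 13 genes of the dishevelled and destruction complex group, Dvl3, Apc2 and Btrc fell in ByJcl, and none of 12 nuclear factors passed there. The calls of Dvl3 and Btrc were each lost in 5 of 11 fits, on leaving out any single ByJcl library other than Day 5 replicate 1 (adjusted p of up to 0.104 and 0.0881). That of Apc2, at an adjusted p of 0.0463, was lost in 8 of 11 fits (up to 0.161), on leaving out any single ByJcl library other than Day 5 replicate 3, Ajcl baseline replicate 3 or either of the 2 Ajcl Day 5 libraries, which leaves 1 in that group.

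Of 10 tested feedback and target genes, 1 rose and 1 fell in ByJcl. Myc, which encodes a transcription factor with many inputs beside Wnt, was at 2.32, 2.89 and 3.62 CPM at ByJcl baseline and at 6.31, 14.4 and 9.60 CPM on Day 5, a rise of 1.76 ± 0.32 (log2, SE, adjusted p = 0.00785). Apcdd1, which encodes a membrane inhibitor of Wnt signalling, was at 48.7, 62.9 and 44.2 CPM at ByJcl baseline and at 31.5, 19.8 and 38.2 CPM on Day 5. In Ajcl it was at 66.2, 64.5 and 63.9 CPM and then at 26.9, 26.5 and 31.6 CPM, again with no overlap. The log2 fold change of Apcdd1 was -0.81 ± 0.21 (SE, adjusted p = 0.0339) in ByJcl, -1.15 ± 0.24 (adjusted p = 0.102) in Ajcl and -0.98 ± 0.16 (adjusted p = 0.00412) averaged over the substrains. Its ByJcl call was lost in 4 of 11 fits, those without ByJcl baseline or Day 5 replicate 1 or 2, with an adjusted p of up to 0.131, and its Ajcl fall passed by DESeq2 on the same 11 libraries (-1.15 ± 0.25, adjusted p = 0.000611) and with all 12 by edgeR (-1.19, adjusted p = 0.0392) and DESeq2 (-1.18, adjusted p = 9.22e-05). Beside these changes, other marker sums also moved in ByJcl after ADR. Those of 3 parietal epithelial markers went from 222 to 276 CPM at baseline to 409 to 812 CPM on Day 5, where 2 of the 3 rose, and those of 4 smooth muscle markers from 302 to 381 CPM to 509 to 631 CPM, where 1 of the 4 rose. Those of 6 glomerular endothelial markers went the other way, from 6904 to 8287 CPM to 4168 to 6385 CPM, where 2 of the 6 fell. None of these pairs of groups overlapped. In Ajcl the parietal sums were 195 to 250 and 164 to 286 CPM, the smooth muscle sums 341 to 365 and 341 to 406 CPM and the endothelial sums 6338 to 7158 and 4624 to 6501 CPM, all with overlap. The part of these cell types in the members and pathway genes that changed in ByJcl was not tested.

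**Figure D4:**
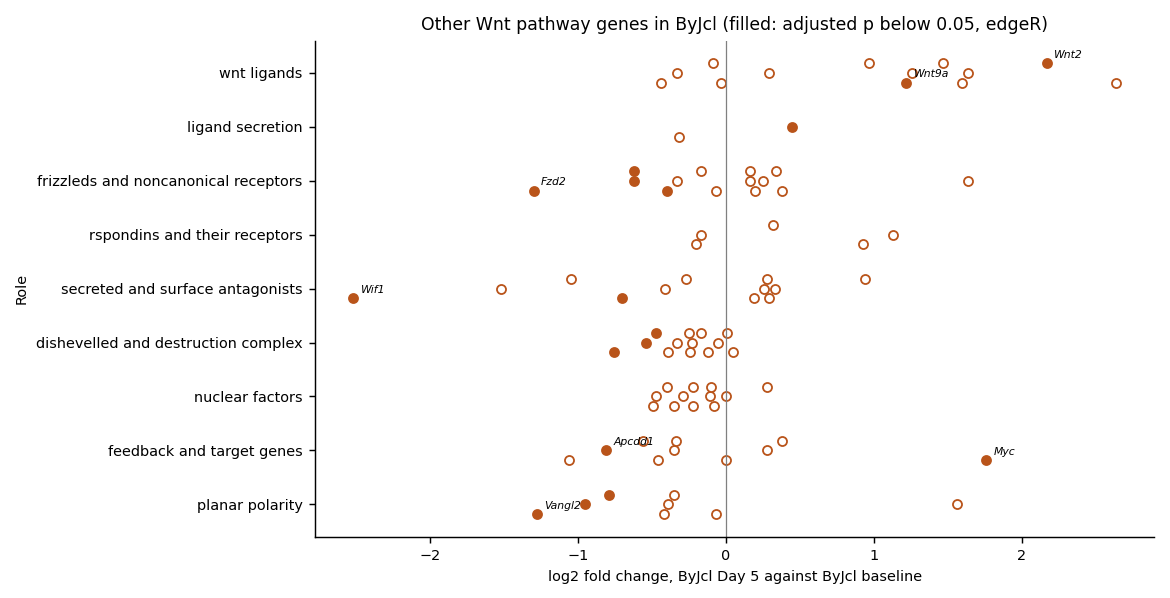
Log2 fold change from ByJcl baseline to ByJcl Day 5 for the 89 tested genes of the wider list, 1 point per gene in rows by role, with filled points at an adjusted p below 0.05 by edgeR and the leading ones named (vertical offsets within a row only separate points). The filled points are 13 to the left of 0, led by Wif1 at -2.52, and 4 to the right.

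Overlapping annotation bears on a few values. Most genes that GENCODE places across exons of the members are not in the count tables. Those that are, Ulk4, 4930593C16Rik and Mir7090 at Ctnnb1, had at most 70 counts in any library, against at least 38028 for Ctnnb1.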

How the data were processed

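Poly(A)-selected, strand-specific libraries of bead-isolated glomeruli were sequenced by the authors as paired-end reads. Per the labels and the study's methods, the authors used Trimmomatic for trimming, STAR for alignment to GRCm39, and featureCounts to assign reads to genes. The deposited values are raw counts per gene symbol, neither normalized nor pooled. The gene annotation and the strand setting of the counting are not given in the sources used here. The baseline table and the Day 5 table were deposited as 2 files, so the effect of ADR and a difference in how the files were made cannot be told apart. Most low counts were even numbers (77.1 to 82.9% of counts from 1 to 49, by library), as if both reads of a pair were counted, which was not tested, and an alternative used halved counts.

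Counts were tested with edgeR 4.0.16 (quasi-likelihood test, filter on expression by group, TMM factors) in R 4.3.3, with 6 contrasts in 1 fit of 11 libraries without Ajcl Day 5 replicate 1, and Benjamini-Hochberg adjustment over the 17002 genes tested at a threshold of 0.05. Replicates within a group differed by more than counting error. CPM were scaled with TMM factors of all 12 libraries and set per kilobase with GENCODE exon lengths of GRCm39. Alternatives were all 12 libraries (16612 genes), DESeq2 1.42.0, its size factors (RLE), no filter, a filter of at least 1 CPM in 3 libraries, halved counts, a replicate block, leaving out each library and, chosen after seeing the data, DESeq2 on all 12 libraries. The fits were also run on simulated counts, and the outcome is not given here.

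The members and the lists were chosen with earlier results of these data known. All members were named. From the pathway list, up to 3 called genes a direction in each contrast were to be named, taken by adjusted p. The 2 with the highest level per kilobase in each role were to be named too, but this was done only in part. Chosen by level but not described above were Wnt16, Wnt5b, Porcn, Ptk7, Lgr4, Rspo1, Csnk1a1, Tnks2, Pygo2, Bcl9l, Ccnd1, Snai1, Prickle2 and Vangl1. None of these passed in any contrast of the main edgeR fit. The tested pathway genes described above are therefore mostly ones that passed. Averaged over the substrains, Vangl1 passed by edgeR with all 12 libraries (adjusted p = 0.0381) and by DESeq2 on 11 (0.0259). Genes outside these rules are named only where few in a role passed. For likeness, the 2 genes with the highest r were named.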

Additional observations from a re-analysis of the deposited data

Results flagged for a closer look

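Rnf43 stood at 2.08 CPM in Ajcl Day 5 replicate 1, a library left out of the main fit, above the highest Ajcl baseline library at 1.73 CPM. It was the highest Rnf43 value of all 12 libraries and rested on 97 counts, and whether tubular RNA in that library bears on it was not tested.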

How the results depend on the processing

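Size factors by RLE, either change of the filter and halved counts left every member's direction and call and every count within 1.5 times of its value. Same-numbered libraries shared only a number, with correlations of their deviations from -0.39 to 0.531. Under the replicate block, 1592 of all genes passed in ByJcl against 1800 without it, and 1469 passed averaged over the substrains against 1774. The averaged pathway count was 12 against 19. Lef1 in ByJcl missed the threshold under the block (adjusted p = 0.0507), with no other member's call changed. With all 12 libraries, members called in ByJcl were 0, beside 7.21% of all genes, and the pathway count in Ajcl was 1, beside 0.325%. The log2 fold change turned to -0.05 for Wnt5a, -0.07 for Znrf3 and 0.08 for Rnf43 in Ajcl, and the interaction to 0.02 for Lrp5 and -0.25 for Sfrp1. With DESeq2 on all 12, those values were -0.04, -0.05, 0.09, 0.01 and -0.27. By that fit, members called in ByJcl and on Day 5 were 1 and 1 (Lef1 and Sfrp1), beside 1999 and 911 of all 16612 genes. Pathway counts in Ajcl, between substrains at baseline and on Day 5 were 2, 1 and 5, beside 326, 69 and 911 genes. With DESeq2 on 11 libraries, members called averaged, on Day 5 and in the interaction were 3, 2 and 1, beside 14.6%, 3.15% and 0.129% of all genes. Pathway counts in Ajcl, at baseline and on Day 5 were then 1, 2 and 3, beside 1.77%, 0.594% and 3.15%. The cause of these shifts was not tested.

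Leaving out 1 library at a time gave 1 to 3 members in ByJcl, 0 to 2 averaged, 6 to 19 pathway genes in ByJcl, 4 to 18 averaged, 0 to 1 in Ajcl and 0 to 1 between substrains on Day 5. The share of all genes called moved as well. In fits with at least 2 libraries in each group it ran from 4.05% to 12.1% in ByJcl and from 6.79% to 10.8% averaged. Signs turned, among values that had not passed, in Ajcl after ADR for Lrp6 (-0.21 to 0.08), Sfrp1 (-0.64 to 0.12) and Rnf43 (-0.52 to 0.08), for Sfrp1 in ByJcl (-0.74 to 0.03) and in the interaction (-0.41 to 0.46), between substrains at baseline for Wnt5a (-0.28 to 0.06), Ctnnb1 (-0.01 to 0.08), Axin2 (-0.09 to 0.18) and Lef1 (-0.25 to 0.17), and on Day 5 for Axin2 (-0.49 to 0.0). Fits without Ajcl Day 5 replicate 2 or 3 hold 1 library of that group, assumed to vary like the others, and calls lost there say nothing of stability. Elsewhere groups held 2 or 3 libraries, and a missed threshold does not show that levels were equal.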
